A study of Homo sapiens with 6 samples.

Results

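The 10 genes described here mark the epithelial and the mesenchymal state of a carcinoma cell, and they were chosen by name: CDH1, EPCAM, CLDN4, KRT8, KRT18 and KRT19 on the epithelial side, and CDH2, VIM, ZEB1 and SNAI2 on the mesenchymal side. All 10 were among the 26255 genes with a value in the RNA-seq tables. The cells were 22RV1, a human prostate carcinoma line that models castration-resistant prostate cancer (CRPC). The 3 DMSO samples received the vehicle and the 3 BCT samples received 10 nM bruceantin (BCT), a quassinoid from a plant, for 24 h, and all 6 were otherwise the same unmodified line in medium with serum. One cell line was profiled, at 1 dose and 1 time, and the labels do not say whether the 3 samples of a group were separate cultures, so the p-values measure only the spread between these samples.

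Epithelial cells hold together through adherens junctions, in which E-cadherin binds its like on the neighbouring cell, and through tight junctions and desmosomes, and their intermediate filaments are built from keratins that pair as a type II with a type I chain. In an epithelial-mesenchymal transition (EMT), zinc-finger repressors of the ZEB and SNAI families bind E-box motifs in the promoters of epithelial genes, E-cadherin gives way to N-cadherin, and vimentin filaments take the place of keratin filaments. In prostate epithelium, KRT8 and KRT18 mark luminal cells, and a gain of N-cadherin has been associated with the castration-resistant state.

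The values are FPKM, fragment counts scaled by the authors to the length of the gene and the depth of the library, so that levels of different genes can be set side by side. The FPKM of a sample summed to between 1169650 and 1572320 in DMSO and between 757534 and 799838 in BCT, and a single small RNA gene, MIR6087, took 43.5 to 55.3% of the sum in DMSO and 31.7 to 32.5% in BCT. Read counts were not analysed here. Depth was estimated from the most frequent ratio, gene by gene, between low values of a library and of DMSO replicate 1. This put the depth of the 6 libraries between 0.878 and 1.13 times that of DMSO replicate 1. The estimate assumes that the most frequent ratio comes from genes with equal read counts in both libraries. BCT replicate 1 stood nearer to the DMSO samples than the other BCT samples did. All 6 luminal markers looked for (among them HOXB13, FOXA1, KLK3, KLK2 and TMPRSS2) reached 1 FPKM in at least 1 sample. The same held for 0 of 5 basal markers, 0 of 4 endothelial markers, 2 of 7 fibroblast markers (COL1A1 and LUM) and 1 of 4 leukocyte markers (CD68).

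The paired keratins KRT8 and KRT18 rose and CDH2 fell in BCT, and those were the 3 members called of the 8 that could be tested. KRT18 in BCT stood at 3.29 times its DMSO level and KRT8 at 2.26 times, whereas CDH2 in DMSO stood at 2.67 times its BCT level. CDH1, EPCAM and VIM passed the false discovery rate (FDR) with smaller differences, CLDN4 and KRT19 passed neither threshold, and ZEB1 and SNAI2 were too low for the test. A gene was tested where its mean over the 6 samples was at least 1 FPKM, and called where limma on log2(FPKM + 0.1) gave an absolute log2 fold change above 0.85 at a Benjamini-Hochberg FDR below 0.05. Calls were frequent across the transcriptome: 31.6% of the 12729 tested genes were called, 13.9% as higher and 17.8% as lower in BCT, and 82.1% passed the FDR alone, so that 3 of 8 members called is near the background. The groups did not overlap for 6 of the 8 tested members, where 85.3% of all tested genes had groups that did not overlap.

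KRT8, the type II keratin of simple epithelia, was measured at 268, 279.6 and 262 FPKM in the DMSO samples and at 553, 680.5 and 596 FPKM in the BCT samples. The lowest BCT sample, replicate 1, was still well above the highest DMSO sample. The log2 fold change of KRT8 was 1.17 (SE 0.077, 95% confidence interval 0.99 to 1.35, adjusted p = 2.6e-06 by limma with Benjamini-Hochberg adjustment). KRT18, the type I keratin with which KRT8 assembles, was measured at 333, 337 and 341 FPKM in DMSO and at 1065, 1148 and 1115 FPKM in BCT. Its 3 DMSO samples lay within a few percent of each other and no BCT sample came near them. The log2 fold change of KRT18 was 1.72 (SE 0.049, 95% confidence interval 1.61 to 1.83, adjusted p = 1.6e-07 by limma with Benjamini-Hochberg adjustment), and 394 of the 12729 tested genes had a larger one, against 993 for KRT8. In a bulk measurement such as this one, more cells with a transcript and more of the transcript per cell cannot be told apart.

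KRT19, a small type I keratin of simple and ductal epithelia, did not follow the other keratins of the set. It was measured at 128, 114 and 116 FPKM in DMSO and at 139, 136 and 115 FPKM in BCT. BCT replicate 3 lay inside the DMSO range, so the groups overlapped, and the log2 fold change was 0.12 (SE 0.082, 95% confidence interval -0.067 to 0.31, adjusted p = 0.199 by limma with Benjamini-Hochberg adjustment). KRT19 lies on chromosome 17 (hg19 39679869 to 39684641, minus strand), away from the KRT8 and KRT18 locus.

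KRT8 and KRT18 lie next to each other on chromosome 12, and the tables give both the interval 53290971 to 53346685 (hg19), with KRT8 on the minus and KRT18 on the plus strand. In GENCODE gene models lifted to GRCh37, exons of any transcript of KRT8 and of KRT18 share 525 bases, whereas the main transcripts (8 exons and 1784 bases for KRT8, 7 exons and 1413 bases for KRT18) share 0. The library kit did not keep the strand, so reads in the shared stretch cannot be told apart between these genes. The same models name 51 pseudogenes of KRT8, 68 of KRT18 and 5 of KRT19, and how reads common to a keratin and its pseudogenes were assigned is not given in the sources used here. The 3 keratin pseudogenes with a row in the tables (KRT8P41, KRT18P55 and KRT19P2) reached at most 0.273 FPKM in any sample.

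**Figure D1:**
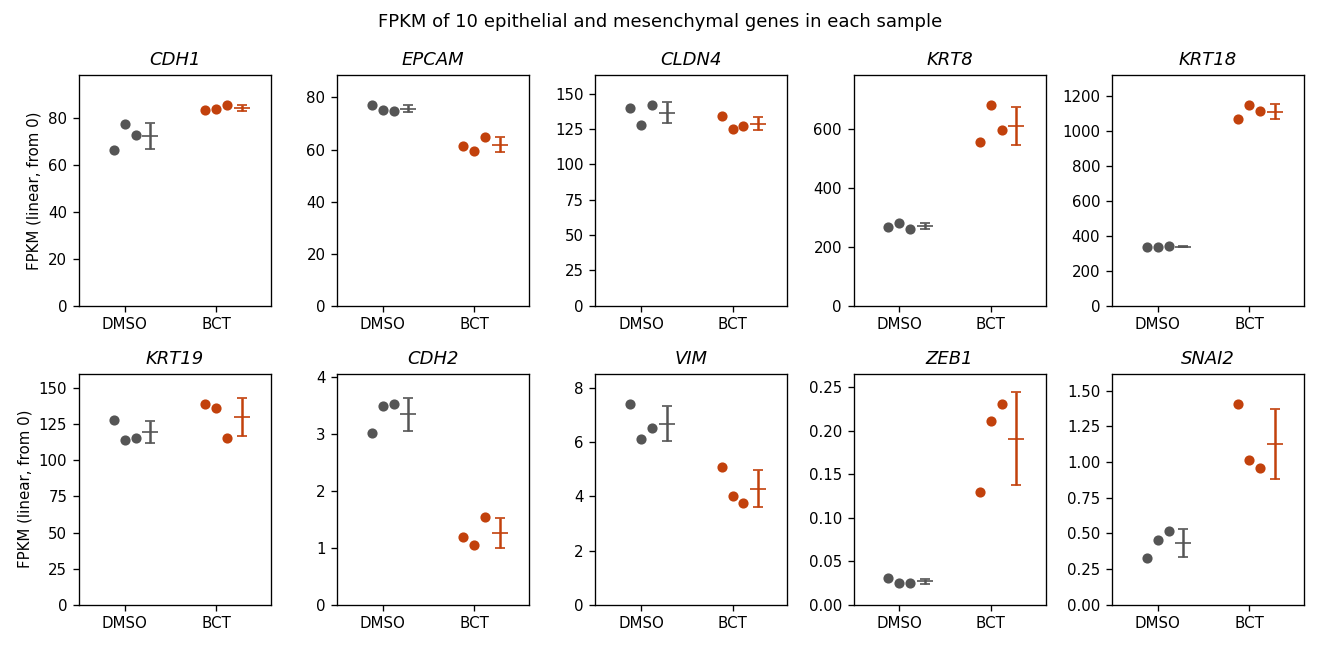
Deposited level of each of the 10 genes in FPKM (vertical axis, linear from 0 and scaled per gene) in the 3 DMSO and the 3 BCT samples, with 1 point per sample and the mean with its SD beside them. KRT8 and KRT18 in BCT lie above all DMSO samples, CDH2 and VIM in BCT lie below them, ZEB1 and SNAI2 sit under or near 1 FPKM, and the groups of KRT19 and CLDN4 overlap.

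Among the epithelial surface proteins, no member was called. CDH1, which encodes E-cadherin, was measured at 66.3, 77.5 and 72.9 FPKM in DMSO and at 83.2, 83.7 and 85.5 FPKM in BCT. All 3 BCT samples were above all 3 DMSO samples, and the BCT samples were closer together. The difference was nevertheless small, with a log2 fold change of 0.22 (SE 0.063, 95% confidence interval 0.078 to 0.37, adjusted p = 0.010 by limma with Benjamini-Hochberg adjustment). CDH1 lies on chromosome 16 (hg19 68771195 to 68869444, plus strand).

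EPCAM, a homophilic adhesion molecule of epithelia and carcinomas, differed in the opposite direction on the deposited scale. It was measured at 77.1, 75.1 and 74.6 FPKM in DMSO and at 61.3, 59.2 and 64.9 FPKM in BCT, again with no overlap. The log2 fold change of EPCAM was -0.29 (SE 0.051, 95% confidence interval -0.41 to -0.17, adjusted p = 0.00070 by limma with Benjamini-Hochberg adjustment), and its sign turned to 0.48 when the 6 samples were set to the same FPKM sum and to 0.095 when MIR6087 was left out of that sum. EPCAM lies on chromosome 2 (hg19 47596287 to 47614167, plus strand). CLDN4, a tight junction claudin encoded by 1 exon on chromosome 7 (hg19 73245193 to 73247023, plus strand), was measured at 140.2, 128 and 142 FPKM in DMSO and at 134, 125 and 127 FPKM in BCT. The CLDN4 groups overlapped, and the log2 fold change was -0.08 (SE 0.057, 95% confidence interval -0.22 to 0.048, adjusted p = 0.201 by limma with Benjamini-Hochberg adjustment), which turned positive under equal sums (0.68), under equal sums without MIR6087 (0.30) and under quantile normalization (0.20).

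On the mesenchymal side, CDH2, which encodes N-cadherin, fell from a low level. It was measured at 3.02, 3.50 and 3.54 FPKM in DMSO and at 1.18, 1.04 and 1.55 FPKM in BCT. No BCT sample reached the lowest DMSO sample. The log2 fold change of CDH2 was -1.36 (SE 0.15, 95% confidence interval -1.71 to -1.01, adjusted p = 4.8e-05 by limma with Benjamini-Hochberg adjustment), and 979 of the 12729 tested genes had a lower one. With every sample set to the same FPKM sum the value was -0.63, under the fold threshold. CDH2 spans chromosome 18 from 25530927 to 25757410 (hg19, minus strand), and its main transcript has 16 exons, as does that of CDH1.

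VIM encodes vimentin, the type III intermediate filament protein of mesenchymal cells. It was measured at 7.43, 6.14 and 6.53 FPKM in DMSO and at 5.09, 4.03 and 3.76 FPKM in BCT. The BCT samples were all below the DMSO samples, with BCT replicate 1 nearest to them. The log2 fold change was -0.64 (SE 0.12, 95% confidence interval -0.92 to -0.36, adjusted p = 0.0012 by limma with Benjamini-Hochberg adjustment), which passed the FDR but not the fold threshold, and it was 0.12 with equal FPKM sums. The tables give VIM an interval on chromosome 10 (hg19 17256238 to 17279592, plus strand) that it shares with its antisense gene VIM-AS1, which was measured at 0.796 to 1.07 FPKM over the 6 samples. Without strand in the libraries, reads from VIM and VIM-AS1 cannot be told apart where the genes overlap.

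The EMT transcription factors among the members, ZEB1 and SNAI2, were the lowest of the 10 genes in DMSO, and both were higher in all BCT samples than in any DMSO sample. ZEB1, a zinc-finger homeodomain repressor of CDH1, was measured at 0.030, 0.025 and 0.025 FPKM in DMSO and at 0.130, 0.211 and 0.231 FPKM in BCT. SNAI2 (Slug), a zinc-finger repressor of the same promoter class, was measured at 0.323, 0.453 and 0.516 FPKM in DMSO and at 1.41, 1.01 and 0.96 FPKM in BCT. The means over the 6 samples were under 1 FPKM, so neither gene entered the test. In a fit with no filter on low values, where 25.2% of 21543 genes were called, ZEB1 had a log2 fold change of 1.18 (SE 0.16, 95% confidence interval 0.81 to 1.55, adjusted p = 0.00043 by limma with Benjamini-Hochberg adjustment). SNAI2 had a log2 fold change of 1.21 in that fit (SE 0.21, 95% confidence interval 0.72 to 1.70, adjusted p = 0.0016 by limma with Benjamini-Hochberg adjustment). Because 0.1 was added to every value, the ZEB1 log2 fold change understates the ratio of its means, 7.15, which itself rests on DMSO values of at most 0.030 FPKM whose read counts the tables do not give. SNAI2 in BCT averaged 2.62 times its DMSO level, and ZEB1 in BCT still lay below 0.25 FPKM in every sample.

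Promoter sequences are shown for a claudin, N-cadherin and ZEB1, so that the E-boxes read by ZEB and SNAI factors can be looked for in members of each role. They are RefSeq sequences of GRCh38.p14, a build other than that of the tables, running 5′ to 3′ on the strand of the gene from 250 bases before an annotated start to 50 bases from it on, and capitals mark CAGGTG or CACCTG, the same E-box read on either strand. The windows are chr7:73830746-73831045 (plus strand) for CLDN4, chr18:28177081-28177380 (minus strand) for CDH2 and chr10:31318966-31319265 (plus strand) for ZEB1.
CLDN4: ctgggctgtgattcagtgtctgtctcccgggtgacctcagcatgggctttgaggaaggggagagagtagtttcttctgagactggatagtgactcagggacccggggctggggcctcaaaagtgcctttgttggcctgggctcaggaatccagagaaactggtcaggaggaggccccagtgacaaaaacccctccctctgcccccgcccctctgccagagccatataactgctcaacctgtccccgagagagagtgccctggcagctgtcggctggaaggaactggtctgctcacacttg
CDH2: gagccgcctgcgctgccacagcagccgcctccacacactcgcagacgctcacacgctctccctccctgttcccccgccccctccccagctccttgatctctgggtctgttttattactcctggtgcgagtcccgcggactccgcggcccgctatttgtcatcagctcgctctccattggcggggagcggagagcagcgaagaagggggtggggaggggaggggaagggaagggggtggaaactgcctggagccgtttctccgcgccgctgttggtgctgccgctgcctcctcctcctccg
ZEB1: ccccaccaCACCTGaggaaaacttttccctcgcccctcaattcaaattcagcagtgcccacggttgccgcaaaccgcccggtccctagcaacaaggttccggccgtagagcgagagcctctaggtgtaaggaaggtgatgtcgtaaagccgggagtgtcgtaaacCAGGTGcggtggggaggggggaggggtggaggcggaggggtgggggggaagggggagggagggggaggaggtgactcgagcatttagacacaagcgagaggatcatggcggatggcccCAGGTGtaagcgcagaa
The ZEB1 window held 3 E-boxes, which began 242 and 85 bases before the start and 33 bases after it, and the CLDN4 and CDH2 windows shown held 0. Of all 35116 promoter windows of this length, 20.6% held at least 1.

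The table held 12 windows for 5 of the 10 members (CLDN4, VIM, KRT8, CDH2 and ZEB1), and CDH1, EPCAM, KRT18, KRT19 and SNAI2 had no entry. The windows of CLDN4, VIM and KRT8 and the 2 windows of CDH2 held 0 E-boxes. ZEB1 had 7 windows, of which 1 held 3 E-boxes, 1 held a single E-box beginning 57 bases before the start, and 5 held 0. A match of letters describes the sequence and is not a binding site, and a window with no match says only that these letters are not in it.

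The log2 fold changes of the members depended on the scale, and so did the median over all tested genes. Over the tested genes the log2 fold change had a median of -0.038 on the deposited scale, 0.72 with every sample set to the same FPKM sum, 0.34 with MIR6087 left out of that sum and 0.028 after quantile normalization. Of the genes called, 56.2% were lower in BCT on the deposited scale, 10.6% with equal sums and 26.4% with equal sums without MIR6087. Given as the distance from the median of all genes, KRT18 ranged over the 6 scalings from 1.76 to 2.23 on the log2 scale, KRT8 from 1.21 to 1.59 and CDH2 from -1.36 to -1.32. VIM lay between -0.64 and -0.60 and EPCAM between -0.25 and -0.16 from that median, so both were below it on each scale. CDH1 lay 0.26 to 0.36 and KRT19 0.16 to 0.35 above it, and CLDN4 crossed it, from -0.047 to 0.17.

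**Figure D2:**
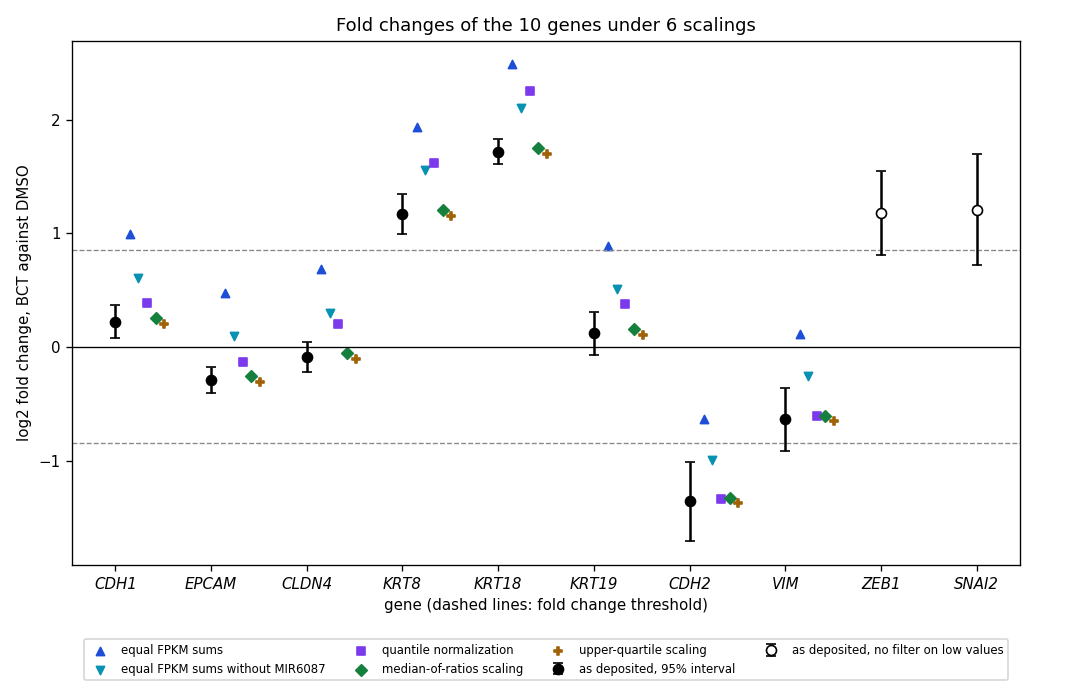
Log2 fold change (BCT against DMSO, vertical axis) of each of the 10 genes on the deposited scale (black circles with 95% confidence intervals from limma, open for ZEB1 and SNAI2, which come from the fit with no filter on low values) and under 5 other scalings (colored symbols), with the fold threshold of 0.85 as dashed lines. On the deposited scale KRT8 (1.17) and KRT18 (1.72) lie beyond the upper line and CDH2 (-1.36) beyond the lower one, while CDH1 (0.22), EPCAM (-0.29) and VIM (-0.64) lie between the lines with intervals that leave out 0, and the equal-sums triangles are the highest symbol of each tested gene.

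Ratios between members within a sample do not change when a sample is multiplied by a single factor, and 5 of them were compared. The E-cadherin to N-cadherin ratio, CDH1 to CDH2, was 22.0, 22.2 and 20.6 in DMSO and 70.3, 80.5 and 55.3 in BCT, with no overlap. On the log2(FPKM + 0.1) scale it was higher in BCT by 1.58 (SE 0.15, n = 3 each, exact permutation p = 0.1, two-sided), which is the smallest p that 3 against 3 samples allow, so that no single ratio can pass 0.05 by this test. On the deposited scale the larger part of this difference came from CDH2 (log2 fold change -1.36) and the smaller from CDH1 (0.22). With equal FPKM sums the larger part was that of CDH1 (0.99 against -0.63 for CDH2). With MIR6087 left out of the sum it was again that of CDH2 (-0.99 against 0.61 for CDH1).

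The keratin pair did not move in step. The KRT8 to KRT18 ratio was 0.805, 0.830 and 0.768 in DMSO and 0.520, 0.593 and 0.534 in BCT, a log2 difference of -0.55 (SE 0.067, n = 3 each, exact permutation p = 0.1, two-sided). KRT19 to KRT18 averaged 0.355 ± 0.026 in DMSO and 0.118 ± 0.014 in BCT (SD, n = 3), and all BCT samples were below all DMSO samples (log2 difference -1.60, SE 0.12). EPCAM to CDH1 averaged 1.05 ± 0.10 in DMSO and 0.734 ± 0.026 in BCT (SD, n = 3), a log2 difference of -0.51 (SE 0.084). The vimentin to keratin ratio, VIM to KRT18, averaged 0.0199 ± 0.0021 in DMSO and 0.00389 ± 0.00077 in BCT (SD, n = 3), a log2 difference of -2.36 (SE 0.18). For all 5 ratios the groups did not overlap and the exact permutation p was 0.1, also after Benjamini-Hochberg adjustment over the 5.

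**Figure D3:**
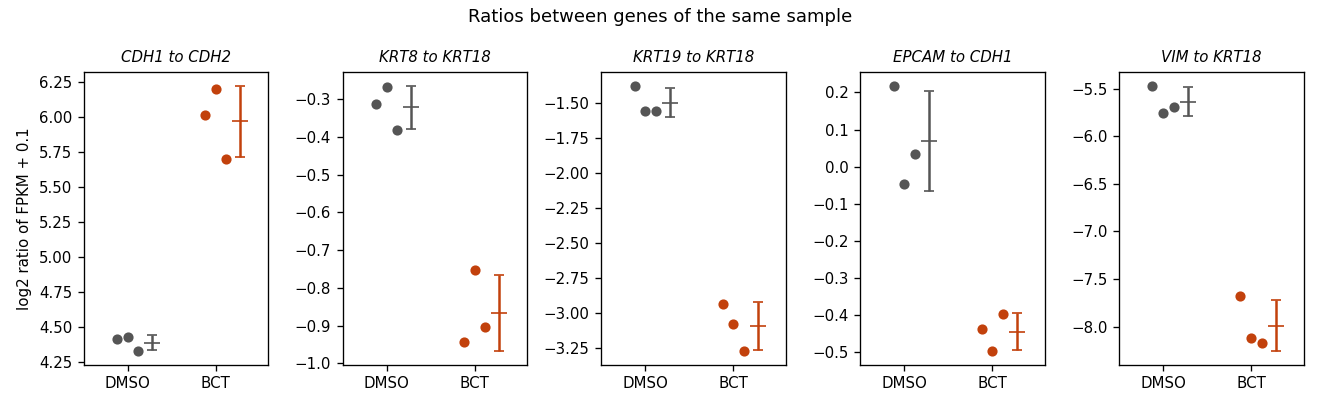
Log2 ratio of FPKM + 0.1 between pairs of members within each sample (vertical axis, scaled per pair and not from 0), with 1 point per sample for 3 DMSO and 3 BCT samples and the mean with its SD beside them. CDH1 to CDH2 is higher in every BCT sample than in any DMSO sample, by 1.58 on average, and the other 4 ratios are lower in every BCT sample.

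In DMSO the members ranged from 337 ± 4.0 FPKM for KRT18 to 0.0267 ± 0.0029 FPKM for ZEB1 (SD, n = 3), in the order KRT18, KRT8, CLDN4, KRT19, EPCAM, CDH1, VIM, CDH2, SNAI2 and ZEB1. The samples of CLDN4 overlapped with those of KRT19, and those of EPCAM with those of CDH1, so these neighbours cannot be ordered. All epithelial members thus lay above all mesenchymal members, with EPCAM at 75.6 ± 1.3 and CDH1 at 72.2 ± 5.7 against VIM at 6.70 ± 0.66 FPKM (SD, n = 3). In BCT the order was KRT18, KRT8, KRT19, CLDN4, CDH1, EPCAM, VIM, CDH2, SNAI2 and ZEB1, in which KRT19 overlapped with CLDN4 and CDH2 with SNAI2. CDH1, at 84.1 ± 1.2 FPKM, now stood above EPCAM, at 61.8 ± 2.8 FPKM (SD, n = 3), with no overlap. Among all 26255 genes ranked by level in each sample, KRT18 went from rank 254 to 273 in DMSO to rank 57 to 74 in BCT, and KRT8 from 317 to 349 to 107 to 128. CDH2 went from rank 10071 to 10421 to rank 11765 to 12435. ZEB1, on chromosome 10 (hg19 31608101 to 31818742, plus strand), and SNAI2, on chromosome 8 (hg19 49830239 to 49833999, minus strand), went up in rank, from 17224 to 17447 to 14907 to 15625 and from 13527 to 14128 to 11942 to 12579.

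Markers of other cell types also differed between the groups. The summed FPKM of the 7 fibroblast markers was 2.62 to 2.81 in DMSO and 5.91 to 7.23 in BCT, with COL1A1 and LUM the only ones to reach 1 FPKM. COL1A1 made up the higher sum, at 1.43 ± 0.18 FPKM in DMSO and 5.83 ± 0.69 in BCT, whereas LUM was lower in BCT, at 1.01 ± 0.075 and 0.574 ± 0.056 FPKM (SD, n = 3), and each of the other 5 was at most 0.192 FPKM in any sample. The summed FPKM of the 4 leukocyte markers was 2.08 to 3.22 in DMSO and 5.14 to 8.48 in BCT, with CD68 the only one to reach 1 FPKM. The 5 basal markers summed to 0.220 to 0.293 FPKM in DMSO and 0.516 to 0.756 FPKM in BCT, the 4 endothelial markers to at most 0.081 FPKM in any sample, and the 6 luminal markers to 298 to 323 FPKM in DMSO and 221 to 272 FPKM in BCT. Of the luminal markers, KLK3 fell from 8.73 ± 0.91 FPKM in DMSO to 1.05 ± 0.24 in BCT, KLK2 from 13.5 ± 0.23 to 4.33 ± 0.17 and TMPRSS2 from 12.7 ± 0.94 to 4.22 ± 0.85 (SD, n = 3), in the samples in which the luminal keratins KRT8 and KRT18 rose, while HOXB13 and FOXA1, which make up most of the sum, were not called. The part of other cell types in these values was not tested.

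The wider gene lists around the members gave mixed directions. Over all tested genes, 13.9% were called higher and 17.8% lower, and the counts of each list are to be read beside these shares. Of 40 other junction and polarity genes, 35 were tested, 3 were called higher and 2 lower, and the median log2 fold change was 0.21, against -0.038 over all tested genes. The catenin partners of E-cadherin were not called: CTNNA1 (alpha-catenin) averaged 133.9 ± 4.9 FPKM in DMSO and 167 ± 5.1 in BCT, CTNNB1 (beta-catenin) 130.5 ± 5.5 and 137 ± 5.4, and CTNND1 (p120-catenin) 79.2 ± 4.7 and 96.5 ± 1.8 (SD, n = 3). Neither called were JUP (plakoglobin), at 48.3 ± 2.4 and 44.3 ± 0.86 FPKM, and TJP1 (ZO-1), at 10.5 ± 0.72 and 15.8 ± 0.62 FPKM (SD, n = 3). With equal sums CTNNA1 (log2 fold change 1.09), CTNND1 (1.05) and TJP1 (1.35) were called higher. The JUP log2 fold change of -0.13 turned to 0.64 with equal sums and to 0.26 with equal sums without MIR6087. The 3 junction genes called higher were the claudin CLDN1 (log2 fold change 2.30) and the desmosome genes DSC2 (1.70) and DSP. CLDN1 averaged 0.782 ± 0.22 FPKM in DMSO and 4.17 ± 0.21 in BCT and passed the filter only through its BCT samples, DSC2 averaged 3.05 ± 0.21 and 10.1 ± 0.57, and DSP averaged 9.41 ± 1.3 and 28.0 ± 2.5 (SD, n = 3). The 2 called lower were PVRL1 (nectin 1), at 24.6 ± 0.74 FPKM in DMSO and 9.54 ± 2.1 in BCT (log2 fold change -1.38), and CDH3 (P-cadherin), at 13.1 ± 0.27 and 5.74 ± 1.0 (log2 fold change -1.19; SD, n = 3).

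P-cadherin thus fell with N-cadherin, while E-cadherin, with 0.22, was not called. Among 15 other keratins, 3 were tested and 2 were called higher, with a median log2 fold change of 0.88. KRT80, at 0.0393 ± 0.0015 FPKM in DMSO and 1.98 ± 0.64 in BCT (SD, n = 3, log2 fold change 3.85), passed the filter only through its BCT samples and so had to differ. KRT10, a keratin of differentiating epidermis, averaged 6.10 ± 0.14 FPKM in DMSO and 11.3 ± 1.0 in BCT (SD, n = 3), and its log2 fold change of 0.88 was under the threshold with a pseudocount of 1 (0.79) and, at 0.84, without BCT replicate 2 or without BCT replicate 3. KRT7 was measured at 7.51, 8.65 and 7.27 FPKM in DMSO and at 9.81, 8.78 and 7.75 FPKM in BCT, with overlap, and was not called.

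Of 24 regulators of the epithelial state, 21 were tested, 4 were called higher and 2 lower, and the median log2 fold change was 0.11. The largest difference was that of ELF3, an epithelium-specific ETS transcription factor, which was measured at 18.6, 20.2 and 18.5 FPKM in DMSO and at 240.7, 318 and 284 FPKM in BCT. No gene of the set of 10 differed as much as ELF3, with a log2 fold change of 3.86 (adjusted p = 1.6e-07 by limma with Benjamini-Hochberg adjustment). OVOL1, a zinc-finger repressor that maintains the epithelial state, averaged 1.66 ± 0.16 FPKM in DMSO and 5.35 ± 0.62 in BCT (SD, n = 3, log2 fold change 1.63), and the other 2 called higher were GRHL1 (1.35) and KLF5 (1.40). GRHL2, a grainyhead factor that activates CDH1, had a log2 fold change of 0.53, and ESRP1, a splicing factor of epithelial isoforms, had -0.39, which turned to 0.37 with equal sums. Neither of them was called on the deposited scale, and GRHL2 was called higher with equal sums (1.29). The 2 called lower were the protease inhibitor SPINT2, at 291.7 ± 14 FPKM in DMSO and 134 ± 12 in BCT (log2 fold change -1.12), and the membrane protease PRSS8, at 11.7 ± 1.2 and 6.27 ± 0.37 (log2 fold change -0.88; SD, n = 3). PRSS8 was no longer called without DMSO replicate 1 (-0.83), DMSO replicate 3 (-0.84) or BCT replicate 2 (-0.84), or with a pseudocount of 1 (-0.80).

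Of 36 other mesenchymal structure and matrix genes, 17 were tested, 5 were called higher and 2 lower, and the median log2 fold change was 0.021. The called genes included both directions among proteins of contractile and matrix function. COL1A1 (type I collagen) averaged 1.43 ± 0.18 FPKM in DMSO and 5.83 ± 0.69 in BCT (log2 fold change 1.95), and ACTA2 (smooth muscle actin) 3.91 ± 0.51 and 14.1 ± 0.93 (log2 fold change 1.83; SD, n = 3). TAGLN (1.67), S100A4 (1.03) and ITGA5 (0.87) were the other genes called higher, of which S100A4 passed the filter only through its BCT samples. TNC (tenascin C) averaged 6.08 ± 0.44 FPKM in DMSO and 2.82 ± 0.53 in BCT (log2 fold change -1.09), and MSN (moesin) 2.05 ± 0.14 and 0.955 ± 0.062 (log2 fold change -1.03; SD, n = 3), with MSN past the filter only through DMSO and under the fold threshold with a pseudocount of 1 (-0.64). FN1 (fibronectin) averaged 1.43 ± 0.27 and 1.05 ± 0.20 FPKM (SD, n = 3) and was not called, with a log2 fold change of -0.41 that turned to 0.30 with equal sums.

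Of 18 other EMT transcription factors, 9 were tested, 2 were called higher and 1 lower, and the median log2 fold change was 0.20. FOSL1, an AP-1 subunit, averaged 0.213 ± 0.087 FPKM in DMSO and 3.04 ± 1.0 in BCT (SD, n = 3, log2 fold change 3.31) and passed the filter only through its BCT samples. PRRX1, a homeobox factor, averaged 0.675 ± 0.015 and 1.33 ± 0.25 FPKM (SD, n = 3), also passed only through BCT, and its log2 fold change of 0.87 lost its call without BCT replicate 1 (0.80) or BCT replicate 3 (0.79) and with a pseudocount of 1 (0.47). TCF3, whose E12 and E47 products bind E-boxes, averaged 28.1 ± 0.27 FPKM in DMSO and 11.3 ± 1.8 in BCT (SD, n = 3, log2 fold change -1.32). TWIST1 averaged 15.0 ± 0.87 and 10.8 ± 0.62 FPKM (SD, n = 3) and was not called, with a log2 fold change of -0.47 that turned to 0.30 with equal sums. The close relatives of ZEB1 and SNAI2 were under the filter: ZEB2 averaged 0.00467 FPKM in DMSO and 0.0267 in BCT, and SNAI1 averaged 0.243 and 0.490 FPKM, and in the fit with no filter neither was called (adjusted p = 0.068 for ZEB2 and 0.096 for SNAI1 by limma with Benjamini-Hochberg adjustment). With equal sums, none of the 7 list genes called lower on the deposited scale (PVRL1, CDH3, SPINT2, PRSS8, TNC, MSN and TCF3) was called, and their log2 fold changes lay between -0.62 and -0.12. With MIR6087 left out of the sum, CDH3 (-0.81), SPINT2 (-0.74), PRSS8 (-0.50), TNC (-0.71) and MSN (-0.67) were not called. SPINT2 also lost its call under quantile normalization (-0.80) and PRSS8 under median-of-ratios scaling (-0.847).

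**Figure D4:**
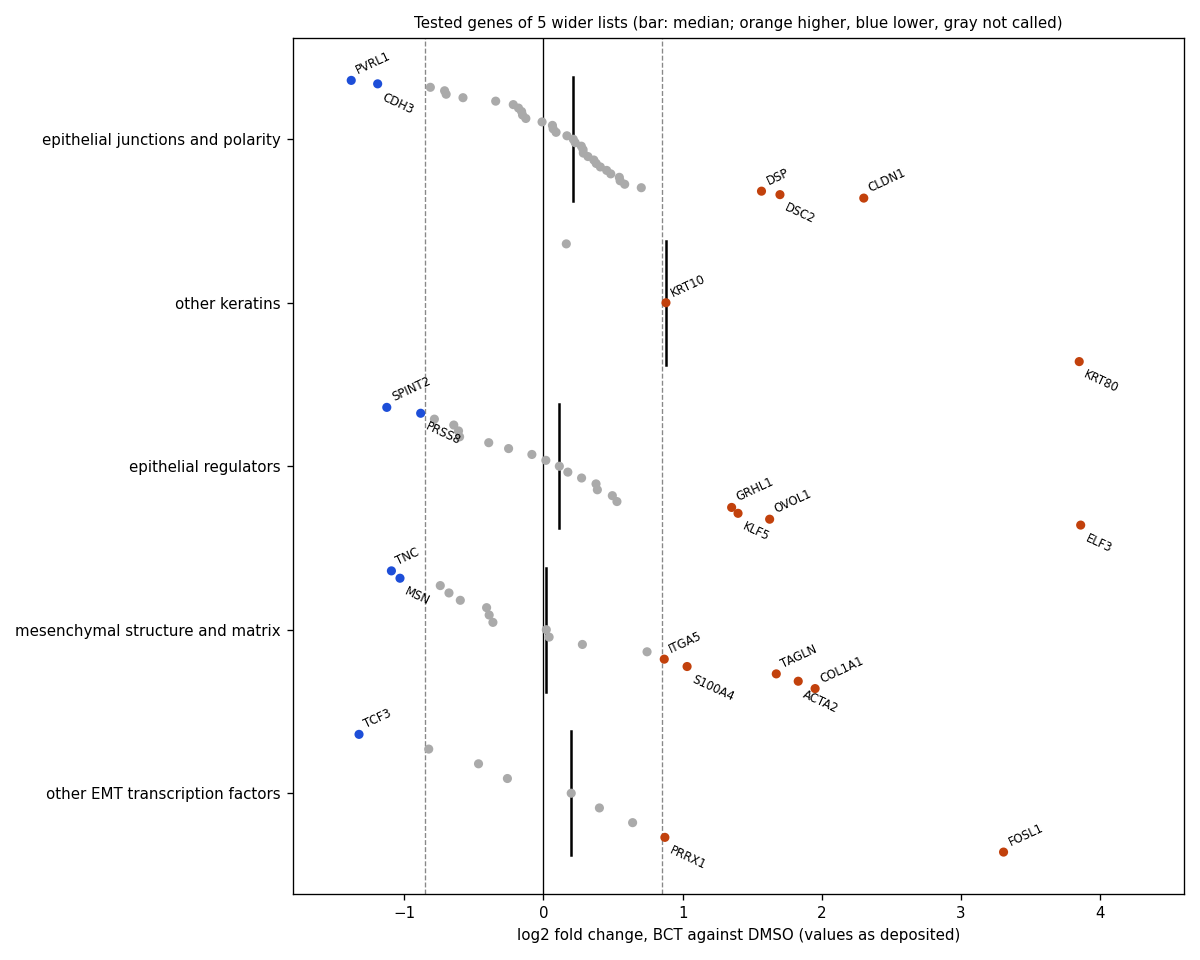
Log2 fold change (BCT against DMSO, horizontal axis) of every tested gene in 5 lists around the members, with 1 point per gene (orange called higher, blue called lower, gray not called), a black bar at the median of each list and the fold threshold of 0.85 as dashed lines. Each of the lists except the other keratins has called genes on both sides, with ELF3 (3.86), KRT80 (3.85) and FOSL1 (3.31) the highest points.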

How the data were processed

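RNA-seq libraries of 22RV1 cells (3 DMSO, 3 BCT) were made by the authors with a kit that does not keep strand. Per the labels and the study's methods, reads were trimmed with Trimmomatic (0.38), aligned to hg19 with HISAT2 and assembled with StringTie; CASAVA and HTSeq are also listed, with no role given, and the annotation version is not given in the sources used here. The authors deposited 1 FPKM value per gene and sample, with gene positions, and no counts were used. FPKM were analysed as deposited as log2(FPKM + 0.1), which understates the change of low genes, for genes averaging 1 FPKM or more over the 6 samples, with limma 3.58.1 in R 4.3.3 (empirical Bayes with trend, Benjamini-Hochberg). Calls needed a log2 fold change beyond ±0.85 at an FDR under 0.05, thresholds taken from the results of the study. Its methods give an FDR of 0.01, at which 4010 genes were called here, against 4027 at 0.05. The study does not name its gene test, so the calls given here are not its gene list. Ratios between members were compared by a two-sided exact permutation test in SciPy 1.17.1. The fit was tested on simulated data in which 200 of 12729 genes were changed by 1.5 on the log2 scale. Of these, 195 were called in the right direction, and 1 of the 12529 unchanged genes was called. The simulation changed a far smaller share of genes than was called here and had no scale difference between groups, so it does not test the scaling.

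The members and lists were chosen with earlier results of these data known. Named were the 10 members, 12 set genes (CTNNA1, CTNNB1, CTNND1, JUP, TJP1, GRHL2, OVOL1, ESRP1, ZEB2, SNAI1, TWIST1, FN1) and, from each list, in each direction the 2 called genes that changed most and whose groups did not overlap. DSP, GRHL1, KLF5, TAGLN, S100A4, ITGA5 and KRT7, the marker genes given by value and the genes under the filter in the closing section were named after their values were seen. Alternatives changed the pseudocount, the filter, the scaling, the FDR, the variance model and the samples, or added the replicate number as a block.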

Additional observations from a re-analysis of the deposited data

How the results depend on the processing

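The CDH1 to CDH2, KRT8 to KRT18, KRT19 to KRT18, EPCAM to CDH1 and VIM to KRT18 ratios kept their direction in every alternative run. Leaving out a sample or adding the block could not reverse them, because their groups did not overlap. Over all alternatives, 142 log2 fold changes of members kept direction and side of the threshold, 6 reversed, 2 became calls and 1 lost its call. Many of the 142 could not reverse, because the filter, the FDR, the variance model and the block leave a fold change as it is. ZEB1 and SNAI2, fitted only without a filter, are not in these counts. Of the members, 3 were called as reported, 5 without a filter (ZEB1 and SNAI2 in addition) and 4 with equal FPKM sums (CDH1 0.99, KRT8, KRT18 and KRT19 0.89, with CDH2 at -0.63 no longer called). With equal sums, 6282 of all 12729 tested genes were called, and without a filter 5428 of 21543.

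With equal sums the reversed log2 fold changes were EPCAM 0.48, VIM 0.12, CLDN4 0.68, JUP 0.64, ESRP1 0.37, FN1 0.30 and TWIST1 0.30, and without MIR6087 in the sum EPCAM 0.095, CLDN4 0.30 and JUP 0.26, while quantile normalization reversed CLDN4 to 0.20. Equal sums, with or without MIR6087, move the median of all genes up. Of all genes, 4027 were called (1764 higher, 2263 lower), against 6282 (5614 and 668) with equal sums and 3370 higher and 1208 lower without MIR6087. Calls of higher genes came to 2657 when no gene was filtered and to 1150 when only genes averaging 5 FPKM or more were tested. Leaving out 1 replicate gave 3834 to 4420 called genes.

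Called junction genes numbered 20 with equal sums and 9 without MIR6087, regulators 11 with equal sums, and EMT factors 5 with equal sums, 6 without a filter and 1 at 5 FPKM. Called other keratins numbered 1 with a pseudocount of 1, 4 without a filter, 1 at 5 FPKM and 1 to 2 when a replicate was left out, and mesenchymal genes 4, 12 and 1 in the first 3 of these. Over all tested genes, 6282 of 12729 were called with equal sums and 4578 of 12729 without MIR6087. Calls came to 5428 of 21543 genes without a filter, 2727 of 9319 at 5 FPKM and 3250 of 12729 with a pseudocount of 1. The list counts are to be read beside these.

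The labels do not say whether same-numbered samples were processed together. The correlation of deviations was 0.033 to 0.12 for the same number and -0.12 to 0.074 for different numbers. Of 3 DMSO samples, 2 were most correlated with their own number, and so few samples cannot settle a pairing. With the replicate block, 4033 genes and the same count of 3 members were called. FPKM do not give the reads behind a gene, so no counting error can be set on the low values of ZEB1 and SNAI2.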

Other observations

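Genes of the lists that stayed under 1 FPKM on average held further epithelial and mesenchymal genes that differed between DMSO and BCT. Without a filter on low values, 10 of 48 such genes were called higher in BCT and 4 lower, where 10.2% of all 8814 genes under the filter were called higher and 5.83% lower. GRHL3, a grainyhead factor of surface epithelia, was measured at 0.139, 0.097 and 0.045 FPKM in DMSO and at 1.18, 2.02 and 1.41 FPKM in BCT (log2 fold change 3.08). FOXC1, a forkhead factor expressed in mesenchyme, was at 0.213, 0.198 and 0.278 FPKM in DMSO and at 1.40, 1.81 and 1.59 FPKM in BCT (log2 fold change 2.37). In both, every BCT sample was above every DMSO sample.

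The genes lower in BCT included SNAI3, the third member of the SNAI family, at 0.618, 0.644 and 0.798 FPKM in DMSO and 0.247, 0.159 and 0.129 FPKM in BCT (log2 fold change -1.51). LOX, which cross-links collagen, was at 1.08, 1.01 and 1.19 FPKM in DMSO and at 0.416, 0.329 and 0.432 FPKM in BCT (log2 fold change -1.28). On the deposited scale, SNAI3 and SNAI2 thus stood in opposite directions in the same samples. The basal genes TP63 (log2 fold change 1.09) and KRT17 (1.32) were called higher without a filter but remained at or below 0.303 FPKM in every sample.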
